A study of Mus musculus with 9 samples.

Results

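The 3 D cyclins (Ccnd1, Ccnd2, Ccnd3), their kinases (Cdk4, Cdk6), the 3 pocket proteins (Rb1, Rbl1, Rbl2) and the transcription factors E2f1 and E2f2 were followed across 9 arrays of mouse T-cell lymphoma. The genes were taken as a family, and all probe sets that the array annotation gives to them were used: 32 probe sets for 10 genes, out of 45101 probe sets and 18194 named genes on the array. A probe set is a group of short oligonucleotides that together read 1 transcript. No probe set of these genes was shared with another gene in the annotation. Of the 32 probe sets 29 lay above the filter for low signal, and each of the 10 genes kept at least 2.

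The tumours came from G3 Atm-/- TERT-ER mice. They lack the DNA damage kinase Atm, and their TERT-ER telomerase can be switched on with 4-hydroxytamoxifen (4-OHT). All tumours shared this genotype and were carried in SCID mice, which lack mature lymphocytes of their own but keep stroma, vessels and macrophages. The telomerase group was 3 tumours at passage 4 in hosts on 4-OHT, and the ALT group was 5 tumours at passage 4 in hosts on vehicle, labelled as using alternative lengthening of telomeres (ALT), in which telomeres are extended by recombination and not by telomerase. The parental tumour, labelled as positive for telomerase, was 1 array whose treatment the labels do not state. Because the drug went with the group, effects of 4-OHT, of active telomerase and of ALT cannot be told apart. The tumours carry numbers, but whether the same number in both groups marks 1 original tumour is not stated, nor are age and sex of the animals. The p-values therefore measure only the spread between these samples.

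D cyclins bind CDK4 or CDK6 and carry growth signals into the cell cycle. The active kinases phosphorylate the pocket proteins RB (from Rb1), p107 (Rbl1) and p130 (Rbl2), which otherwise hold E2F factors in check at genes needed for DNA synthesis. Thymocytes rely mainly on cyclin D3 and CDK6, cyclin D2 is the D cyclin of many mature lymphocytes, and cyclin D1 is little used in normal lymphocytes but is a well-known target of oestrogen signalling in breast epithelium.

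Array medians ran from 39.8 to 43.8. The share of probe sets with a signal under 16 was 28.2% to 30.7% per array. Without detection calls it is unknown where background begins, and the number of arrays limits the precision. T-cell markers were present throughout: 13 of 13 measured genes passed the filter, and their summed signal was between 37958.3 and 41178.4 in the telomerase arrays and between 29114.5 and 36298.4 in the ALT arrays, so the ranges did not touch. Transcripts of pancreatic acinar cells, with 13 of 13 measured markers above the filter, summed to between 88064 and 187302 in telomerase 3 and ALT 1, 2 and 5, and to between 289 and 965 in the other 5 arrays. Skeletal muscle markers summed to 14999.5 in the parental array, 9955 in telomerase 1 and at most 666 elsewhere. Macrophage markers ranged from 6652 to 9792 in the telomerase and from 6668 to 10125 in the ALT arrays. In bulk tissue fewer cells of a type and less RNA per cell cannot be told apart.

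Of the 10 genes, 2 rose in ALT tumours (Ccnd1 and Rbl2), 3 fell (Ccnd2, Cdk4 and Cdk6) and 5 did not pass the test (Ccnd3, Rb1, Rbl1, E2f1 and E2f2). The test was limma on log2 of the signal plus 16, with 1 probe set per gene (that of the highest mean over all arrays) and Benjamini-Hochberg adjustment over 12369 tested genes at a threshold of 0.05. Over all tested genes 17.5% passed, 7.48% higher and 10.1% lower in ALT. The 10 genes were chosen with earlier results of these data known, so no excess over these shares is read. The 5 genes that passed were also the only ones of the 10 whose groups did not overlap on the main probe set, where 24.8% of all tested genes had no overlap. The median log2 change of the 10 genes was −0.08 against −0.01 over all tested genes. With every probe set tested on its own over 22354 probe sets, 5 of the 29 rose and 12 fell, and these 17 were all of the tested probe sets of the 5 genes. The same test called 20.2% of all probe sets, 7.72% higher and 12.5% lower. Groups did not overlap in 16 of the 29, against 26.4% of all probe sets. The 12 falls and the 16 without overlap include Ccnd2 probe sets that passed the filter only through the telomerase and parental arrays.

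**Figure D1:**
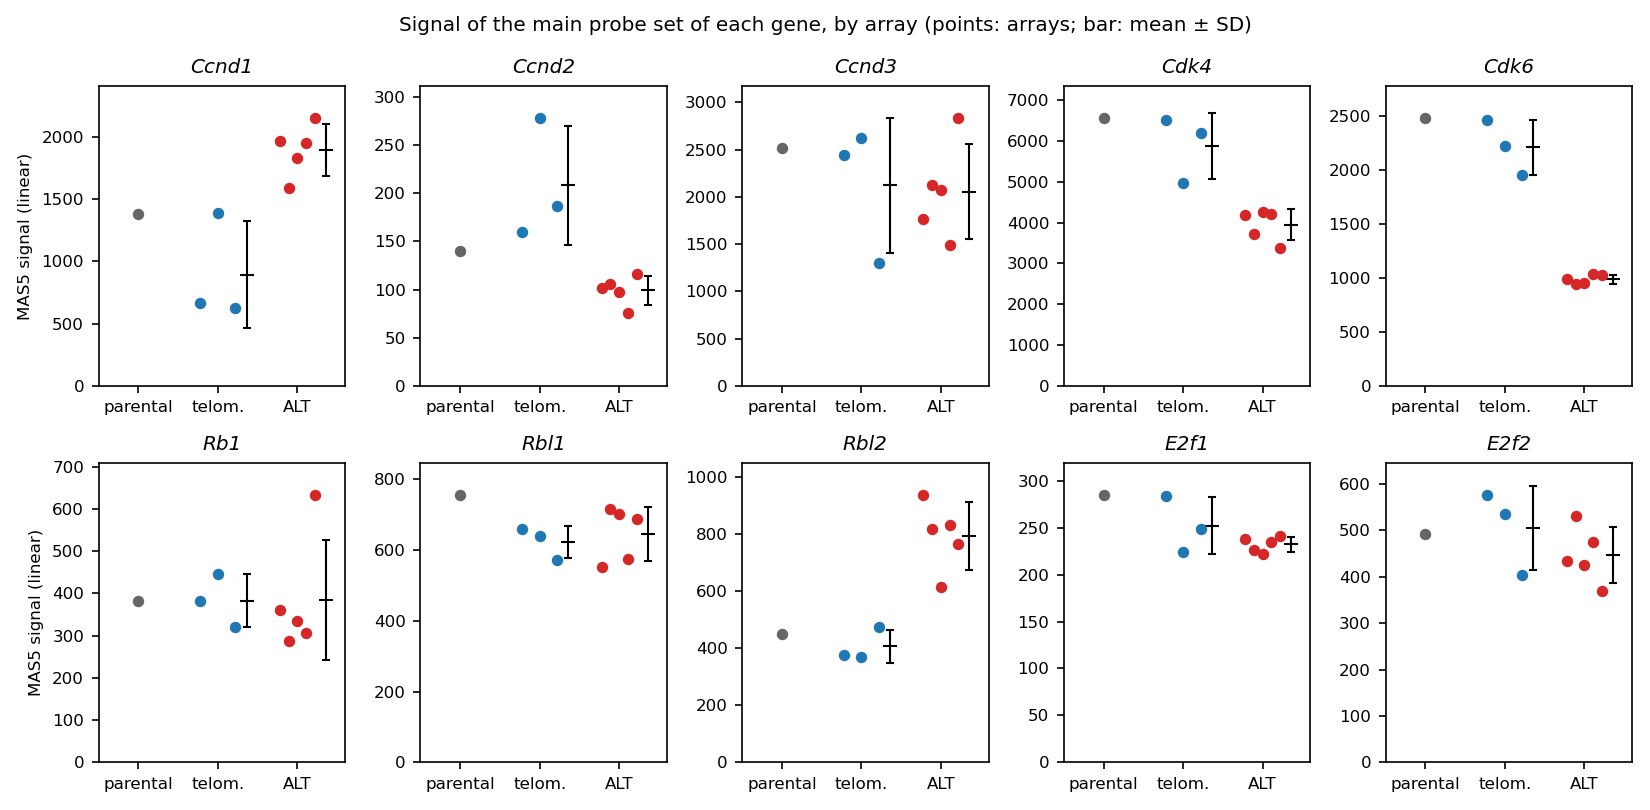
Signal (linear MAS5 units, vertical axis from 0) of the main probe set of each of the 10 genes in the parental, 3 telomerase and 5 ALT arrays, with the mean and SD of each passaged group. ALT arrays lie above all telomerase arrays for Ccnd1 and Rbl2 and below them for Ccnd2, Cdk4 and Cdk6, and the groups overlap for the other 5 genes.

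The D cyclins did not move as a group: Ccnd1 rose, Ccnd2 fell and Ccnd3 did not pass the test. Ccnd1, which encodes cyclin D1, gave 667, 1387 and 625 in telomerase arrays 1 to 3 and 1964, 1586, 1827, 1946 and 2148 in ALT arrays 1 to 5. Telomerase 2 was about level with the parental array at 1379, and the other 2 telomerase arrays were well under it. The lowest ALT array was only a little above telomerase 2. The mean went from 893 ± 428 (SD, n = 3) to 1894 ± 207 (SD, n = 5), a 2.12-fold rise (log2 change 1.16, SE 0.229, limma adjusted p = 0.00754). The other 2 probe sets of Ccnd1 rose by 1.21 (1417419_at) and 1.11 (1448698_at), with telomerase 2 highest of its group in both (890 and 690). 1448698_at did not pass once telomerase 1 was left out (limma adjusted p = 0.0561). The change was 0.96 in the arrays without acinar transcripts (2 telomerase and 2 ALT arrays, limma adjusted p = 0.12) and 1.57 in those with them (1 and 3 arrays, adjusted p = 0.0136). Without telomerase 2 it was 1.52.

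Ccnd2, which encodes cyclin D2, fell on all 6 of its tested probe sets, by amounts that differed widely. On the main probe set, 1448229_s_at, the telomerase arrays gave 159, 278 and 187 and the ALT arrays 102, 106, 97.4, 75.9 and 117. No ALT array reached the lowest telomerase array, and the mean fell from 208 ± 62.1 to 99.5 ± 15.0 (log2 change −0.93, SE 0.18, limma adjusted p = 0.00689). On 1455956_x_at the telomerase arrays gave 136, 329 and 206 and the ALT arrays 7.0, 12.5, 17.1, 7.21 and 26.6. Here the ALT arrays were near or under the pseudocount of 16 that the test adds, and the log2 change was −2.96 (SE 0.28, limma adjusted p = 0.000105). With a pseudocount of 1 it was −3.97, and with 64 it was −1.83. The remaining 4 tested probe sets had log2 changes of −2.50 (1434745_at), −2.41 (1430127_a_at), −2.37 (1416122_at) and −1.62 (1416123_at).

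Telomerase 2 was the highest array on each of the 6 Ccnd2 probe sets, as it was among the telomerase arrays for Ccnd1. The suffixes _s_at and _x_at are the manufacturer's marks for probe sets that may also read related sequences, and the 2 probe sets so marked gave the smallest and the largest fall. With the log2 values of all 7 probe sets averaged, the change of Ccnd2 was −1.85 (limma adjusted p = 0.0012). The seventh, 1416124_at, lay under the filter with values from 4.42 to 26.1 and was not tested. On the main probe set the change was −1.15 (adjusted p = 0.0547) in the arrays without acinar transcripts and −0.71 (adjusted p = 0.159) in those with them. Pancreatic islet cells also express Ccnd2. Islet markers summed to 111, 117 and 564 in telomerase arrays 1 to 3. They summed to between 1143 and 2042 in ALT 1, 2 and 5, and to 131 and 110 in ALT 3 and 4. The part of islet cells in the Ccnd2 values was not tested.

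**Figure D2:**
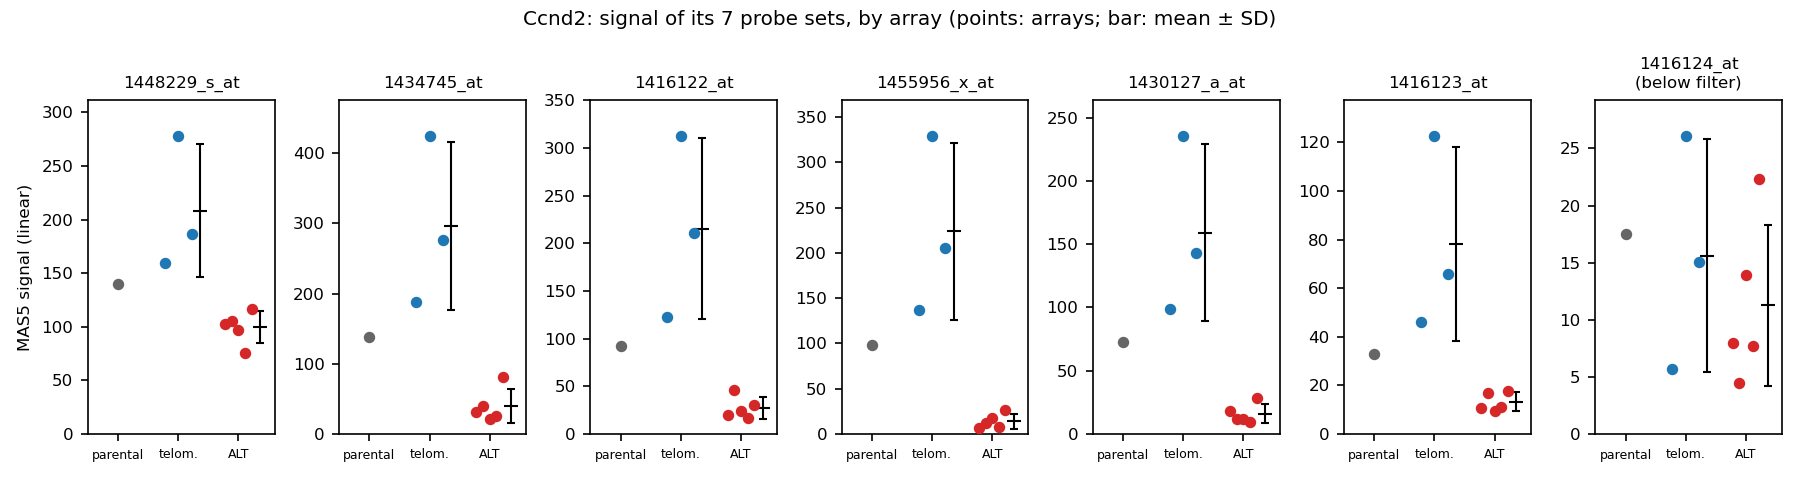
Signal (linear MAS5 units) of the 7 probe sets of Ccnd2 in the parental, 3 telomerase and 5 ALT arrays, with group means and SD. On the 6 probe sets above the filter every ALT array lies below every telomerase array, and telomerase 2 is the highest array.

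Ccnd3 encodes cyclin D3, the D cyclin that developing thymocytes depend on. Its main probe set gave 2444, 2621 and 1302 in the telomerase arrays and 1764, 2128, 2070, 1488 and 2834 in the ALT arrays. The groups covered nearly the same range, with means of 2122 ± 716 and 2057 ± 505 (log2 change −0.01, 95% confidence interval −0.57 to 0.54, limma adjusted p = 0.978). A change inside that interval is not excluded. Because of the adjustment, a change somewhat beyond it could also have failed to pass. The second probe set, 1438805_at, ran the other way across arrays: telomerase 3 and ALT 4, the lowest arrays on the main probe set, were the highest here at 455 and 445. It did not pass (log2 change 0.34, limma adjusted p = 0.567), nor did 1444323_at (−0.25, adjusted p = 0.45).

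Both kinase genes fell, and Cdk6 fell on every probe set by more than any probe set of Cdk4. Cdk6 gave 2464, 2220 and 1955 in the telomerase arrays and 987, 945, 951, 1039 and 1025 in the ALT arrays. The ALT values stayed within a narrow band, far under the lowest telomerase array. The mean fell from 2213 ± 255 to 990 ± 42.4, a 2.24-fold difference (log2 change −1.14, SE 0.0874, limma adjusted p = 6.55e-05). Probe sets 1455287_at and 1460291_at had log2 changes of −1.20 and −1.16. The parental array, at 2483, lay just above the telomerase range. In the arrays without acinar transcripts the change was −1.22 (adjusted p = 0.00367) and in those with them −0.98 (adjusted p = 0.0252).

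Cdk4 gave 6504, 4973 and 6186 in the telomerase arrays and 4178, 3719, 4269, 4210 and 3382 in the ALT arrays on 1422441_x_at. Its groups were closer than those of Cdk6, with telomerase 2 nearest to the ALT arrays. The mean fell from 5888 ± 808 to 3952 ± 387 (log2 change −0.57, SE 0.106, limma adjusted p = 0.00571). On 1422440_at the change was −0.56, and on 1422439_a_at it was −0.50, where ALT 1 at 3444 overlapped telomerase 2 at 3430. 1422439_a_at did not pass once telomerase 1 (adjusted p = 0.0809) or telomerase 3 (0.0782) was left out. The main probe set kept its direction within the arrays without acinar transcripts (−0.42, adjusted p = 0.112) and with them (−0.72, 0.0624), without passing in either.

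T-cell markers were also lower in the ALT arrays (summed signal given above), and their part in the falls of Cdk4, Cdk6 and Ccnd2 was not tested. The RefSeq annotation places Cdk4 so that it overlaps Tspan31, a tetraspanin gene. Tspan31 gave 1636, 1043 and 1816 in the telomerase arrays and 293, 254, 294, 405 and 564 in the ALT arrays, a far larger fall (log2 change −2.02, SE 0.26, limma adjusted p = 0.00082). Whether a probe set of Cdk4 reads transcripts of Tspan31 was not tested.

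Promoter windows of RefSeq (GRCm38.p6), cut to the 250 bases before the annotated start, were held for 7 of the 10 genes in 9 windows. Ccnd1, Ccnd2 and Rb1 had none. The window of E2f1 and the E2f2 window at chr4:136180532-136180781 hold coding sequence of these genes. They precede annotated starts inside the gene, so the promoter upstream of the E2f1 coding sequence was not searched. The windows were searched on both strands for CACGTG, the E-box that MYC and MAX bind, and for 4 spellings of the E2F site (TTTCCCGC, TTTCGCGC, TTTGCCGC and TTTGGCGC). The windows of the 2 kinase genes are shown because they were the only windows of these genes with CACGTG, here in capitals. They lie at chr10:127063285-127063534 (+ strand) and chr5:3343643-3343892 (+ strand) and are written 5′ to 3′.
Cdk4: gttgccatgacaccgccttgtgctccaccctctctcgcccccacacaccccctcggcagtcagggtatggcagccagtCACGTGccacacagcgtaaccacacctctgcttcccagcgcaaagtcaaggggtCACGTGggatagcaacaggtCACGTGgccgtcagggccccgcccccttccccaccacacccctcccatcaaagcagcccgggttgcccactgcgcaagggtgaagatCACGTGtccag
Cdk6: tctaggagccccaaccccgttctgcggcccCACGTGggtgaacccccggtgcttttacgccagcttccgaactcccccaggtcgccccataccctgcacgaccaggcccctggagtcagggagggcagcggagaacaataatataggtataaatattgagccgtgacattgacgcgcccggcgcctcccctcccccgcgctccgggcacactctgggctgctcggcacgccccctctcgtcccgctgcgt
Cdk4 held 4 matches, starting 172, 118, 98 and 11 bases before the start, and Cdk6 held 1, starting 220 bases before it. Of 32851 windows of the same length, 6.02% held at least 1 match and 0.0213% (7 windows) at least 4. Myc itself had signals of 1592 ± 161 in telomerase and 1390 ± 233 in ALT tumours (log2 change −0.21, limma adjusted p = 0.349). Its relative Mycn rose from 441 ± 65.5 to 765 ± 207 (log2 change 0.74, adjusted p = 0.0323). Max had a log2 change of 0.24 (adjusted p = 0.301). Whether any of these factors acts on the 2 kinase genes was not tested.

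Among the pocket proteins only Rbl2 passed the test. Rbl2 encodes p130, the pocket protein that accumulates in resting cells and works with E2F4 and the MuvB complex. On 1425981_a_at it gave 377, 370 and 474 in the telomerase arrays and 937, 816, 615, 832 and 763 in the ALT arrays. The lowest ALT array, ALT 3, stayed above the highest telomerase array. The mean rose from 407 ± 58.3 to 793 ± 118, or 1.95-fold (log2 change 0.93, SE 0.14, limma adjusted p = 0.0019), and 1418146_a_at rose by 0.58 (adjusted p = 0.00645). In the arrays without acinar transcripts the change was 0.91 (adjusted p = 0.0296) and in those with them 0.80 (adjusted p = 0.0763).

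Rb1, which encodes the retinoblastoma protein, gave 381, 447 and 321 in the telomerase arrays and 360, 287, 335, 306 and 634 in the ALT arrays. ALT 5 stood apart at the top, ALT 1 and 3 lay inside the telomerase range, and ALT 2 and 4 lay under it. The log2 change was −0.04 (95% confidence interval −0.56 to 0.48, limma adjusted p = 0.927), and without ALT 5 it was −0.23. Rbl1, which encodes p107 and is itself induced by E2F as cells enter the cycle, gave 659, 640 and 572 in the telomerase arrays and 552, 716, 701, 575 and 687 in the ALT arrays. Its groups overlapped, with a log2 change of 0.04 (interval −0.21 to 0.30, limma adjusted p = 0.825). The other tested probe sets of Rb1 and Rbl1 had log2 changes between −0.14 and −0.02 and did not pass. The fourth probe set of Rbl1, 1454293_at, lay under the filter.

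The windows of Rbl1 and Rbl2 are shown as a pair, since Rbl1 held the only E2F spelling found in the 9 windows and Rbl2, the pocket gene that rose, held none. They lie at chr2:157204535-157204784 (- strand) and chr8:91069807-91070056 (+ strand), with the match in capitals.
Rbl1: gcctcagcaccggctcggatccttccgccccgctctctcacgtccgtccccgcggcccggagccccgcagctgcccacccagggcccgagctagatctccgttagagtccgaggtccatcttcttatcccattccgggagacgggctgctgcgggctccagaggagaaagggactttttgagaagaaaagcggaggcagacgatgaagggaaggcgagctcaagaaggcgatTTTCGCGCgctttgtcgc
Rbl2: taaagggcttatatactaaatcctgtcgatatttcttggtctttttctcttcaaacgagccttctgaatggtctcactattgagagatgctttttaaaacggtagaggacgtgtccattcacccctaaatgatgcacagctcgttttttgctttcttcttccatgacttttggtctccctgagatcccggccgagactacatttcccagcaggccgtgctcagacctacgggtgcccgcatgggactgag
The match, TTTCGCGC, starts 18 bases before the start of Rbl1. At least 1 of the 4 spellings was found in 1.86% of the 32851 windows. A match describes the letters in the window and nothing about binding. A window without a match does not speak for other promoters of its gene.

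E2f1 and E2f2 encode activating E2F factors that are released when pocket proteins are phosphorylated, and neither passed the test. E2f1 gave 284, 224 and 249 in the telomerase arrays and 237, 226, 222, 235 and 242 in the ALT arrays, so the ALT arrays lay inside the telomerase range but for ALT 3, just under it. The log2 change was −0.11 (95% confidence interval −0.33 to 0.12, limma adjusted p = 0.509). E2f2 gave 577, 534 and 404 against 434, 532, 425, 476 and 370 (log2 change −0.16, interval −0.49 to 0.16, limma adjusted p = 0.482). Their second probe sets had log2 changes of −0.15 (1417878_at) and −0.19 (1455790_at). The third probe set of E2f1, 1447840_x_at, was under the filter with values from 1.00 to 12.2.

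**Figure D3:**
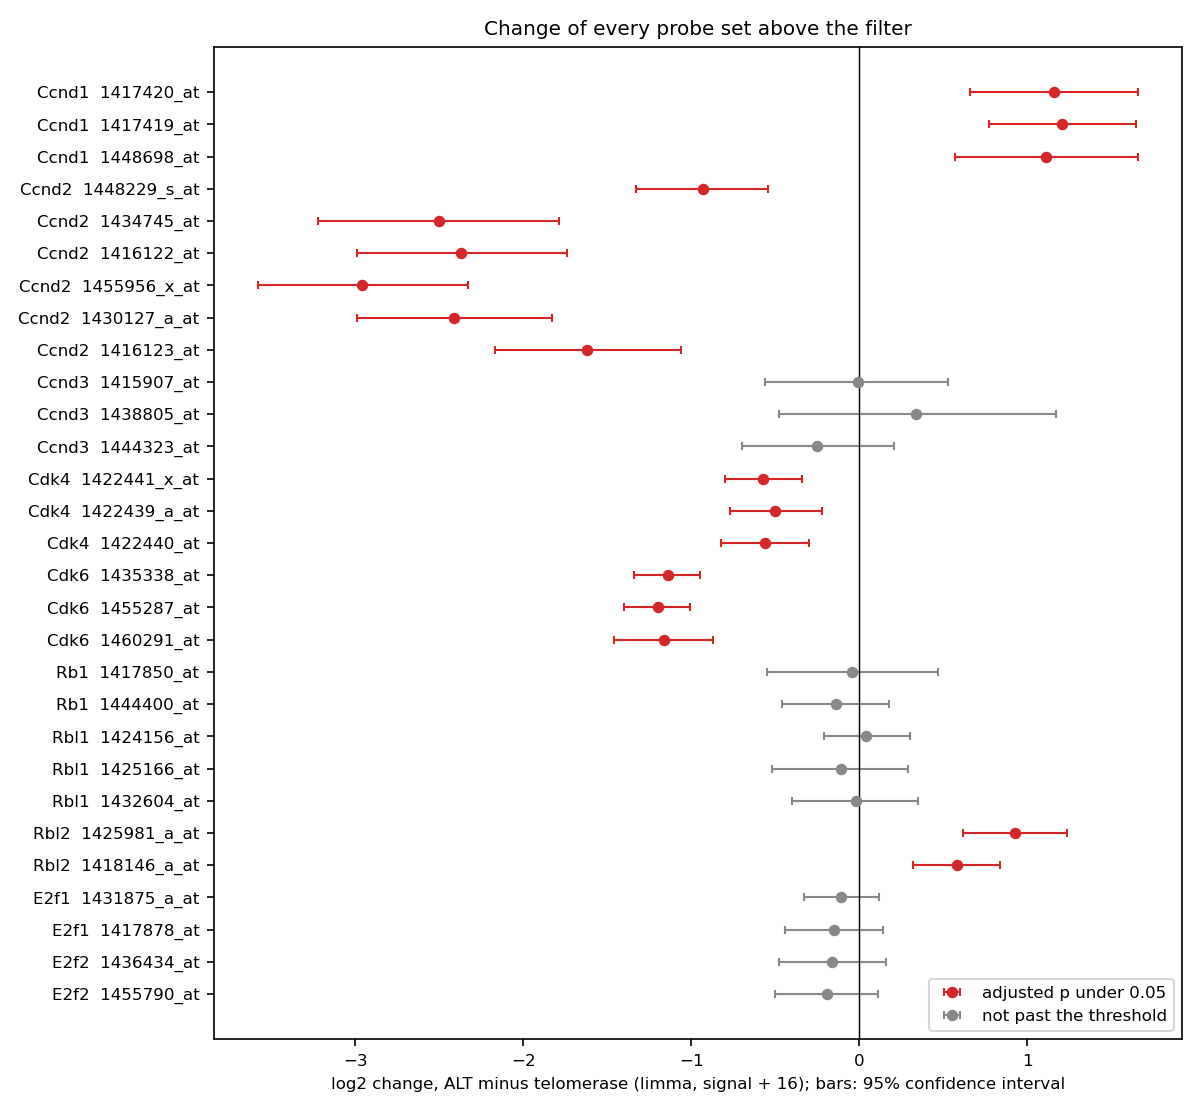
log2 change, ALT minus telomerase, of the 29 tested probe sets with 95% confidence intervals from limma (horizontal axis, signal plus 16). The 17 probe sets past the threshold (red) belong to Ccnd1, Ccnd2, Cdk4, Cdk6 and Rbl2, and the 12 others (grey) have intervals that include 0.

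Whether relatives changed unequally was asked through 8 ratios of main probe sets within each array, compared by exact permutation of the arrays (two-sided, 56 splits, smallest possible p 0.0179, Benjamini-Hochberg over the 8). A ratio between 2 probe sets has no meaning as a level, so only its difference between groups is read. The log2 ratio of Ccnd1 to Ccnd2 was 1.96, 2.25 and 1.66 in the telomerase arrays and 4.07, 3.72, 4.02, 4.42 and 4.03 in the ALT arrays. All ALT arrays were higher, by 2.09 on average (exact permutation p = 0.0179, adjusted 0.0286). Ccnd1 and Ccnd2 had each already separated the groups, in opposite directions. The separation by this ratio was therefore fixed in advance, and its p is no separate support. Ccnd1 to Ccnd3 was higher in ALT by 1.17, Ccnd2 to Ccnd3 had a difference of −0.92, Cdk6 to Cdk4 one of −0.57 and Rbl1 to Rbl2 one of −0.89, each with no overlap between groups and the same exact permutation p. The 5 differences kept their direction with any 1 array left out, but 0 of the 8 ratios passed the exact test without any 1 of the telomerase arrays or without ALT 1, 2 or 4, and 5 passed without ALT 3 or without ALT 5. Without ALT 3 these were the same 5 ratios. Without ALT 5 the ratio Rbl1/Rbl2 did not pass (−0.92, exact permutation adjusted p = 0.0762), and Rb1/Rbl2 did (−1.17, 0.0457). With fewer arrays the smallest possible p is larger. Without a telomerase array no ratio could pass after adjustment unless all 8 were at that smallest p. The failure there does not show that the ratios hinge on those arrays.

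Rb1 to Rbl2 differed by −0.97 but overlapped, since ALT 5 at −0.26 lay among the telomerase values (exact permutation p = 0.0536, adjusted 0.0714). The ratios of Rb1 to Rbl1 (difference −0.09, adjusted p = 0.768) and E2f1 to E2f2 (0.06, 0.768) did not pass the exact test. Ccnd2 to Ccnd3 missed the threshold with a pseudocount of 64 (−0.70, adjusted p = 0.0714).

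**Figure D4:**
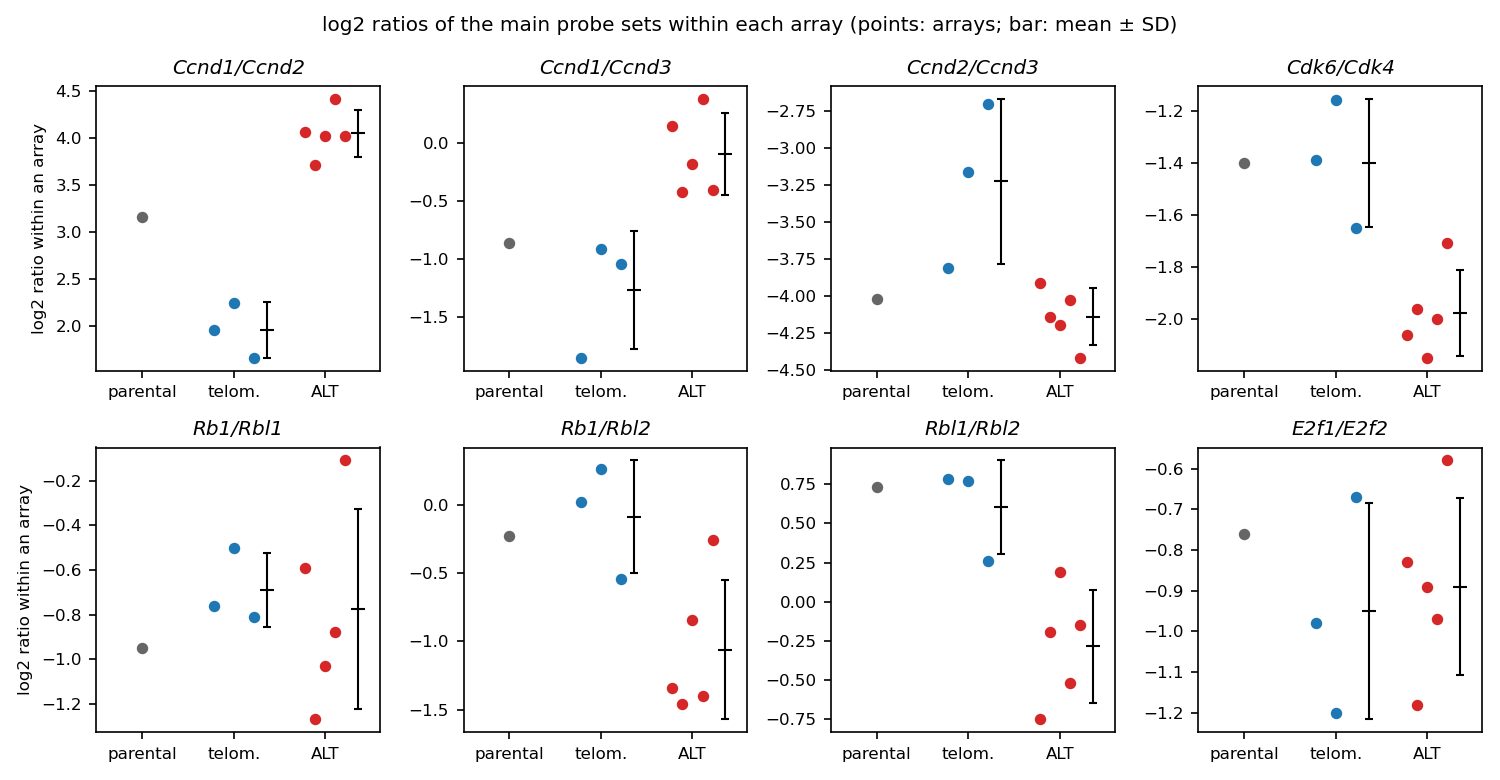
log2 ratio of 2 main probe sets within each array (vertical axis) in the parental, 3 telomerase and 5 ALT arrays, with group means and SD. The passaged groups do not overlap for Ccnd1/Ccnd2, Ccnd1/Ccnd3, Ccnd2/Ccnd3, Cdk6/Cdk4 and Rbl1/Rbl2.

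The parental array was nearer to the telomerase mean than to the ALT mean for 7 of the 10 main probe sets. This count includes genes that did not pass the test, for which nearness says little (Rb1 had group means of 383 and 384). No such share over all genes is set beside it. Among the genes that passed, the parental array was nearer to the telomerase mean for 3 and to the ALT mean for Ccnd1 and Ccnd2. It lay with the telomerase arrays for Cdk4 (6559, just above their range), Cdk6 (2483) and Rbl2 (450, inside their range). For Ccnd1 it was 1379, inside the telomerase range at its upper end and, on the log2 scale, nearer to the ALT mean. On 1448698_at it was also nearer to the ALT mean, but on 1417419_at nearer to the telomerase mean. For Ccnd2 it was 140, between the groups and, on the log2 scale, nearer to the ALT mean. On 1416123_at it was also nearer to the ALT mean, and on the remaining tested probe sets of Ccnd2 nearer to the telomerase mean. On the probe set of Ccnd2 with the largest fall, 1455956_x_at, it was 98.1, where the highest ALT array was 26.6. With 1 parental array none of these positions can be tested.

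The wider pathway was described by 8 lists of 111 genes, of which 105 were on the array and 104 were tested. In these lists 10 genes rose (9.62%) and 12 fell (11.5%), close to the 7.48% and 10.1% of all tested genes. With 1 array left out at a time the total ran from 5 to 11 higher and from 6 to 13 lower. Both lowest totals came without telomerase 1, and without telomerase 3 there were 6 higher. The counts of single lists are small, and several genes named here lay close to the threshold.

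Of the 8 other E2F and DP factors 2 rose and 2 fell. E2f3, an activating E2F, fell from 534 ± 52.0 to 309 ± 32.2 (log2 change −0.76, limma adjusted p = 0.00167), and Tfdp1, the usual partner of E2F on DNA, fell by 0.41 (adjusted p = 0.00428). E2f8, an E2F that represses, rose from 351 ± 69.8 to 564 ± 68.7 (log2 change 0.67, adjusted p = 0.0122). E2f6, another repressor, rose by 0.49 on its main probe set and fell by 1.33 on its other, so its direction is uncertain. The second probe set of E2f3 was at 0.18 and did not pass.

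Among 7 CDK inhibitors 1 rose and 2 fell. Cdkn1a, which encodes p21, gave 1633, 752 and 371 in the telomerase arrays and 131, 110, 103, 55.0 and 386 in the ALT arrays (log2 change −2.45, SE 0.555, limma adjusted p = 0.0145). ALT 5 overlapped telomerase 3, and without telomerase 1 the adjusted p was 0.0701. In the arrays with acinar transcripts the change was −0.99 (adjusted p = 0.455). Telomerase 1 and the parental array, at 1311, were the arrays with skeletal muscle transcripts. Cdkn2a, whose products p16 and p19Arf act on CDK4/6 and on p53, gave 214, 64.3 and 41.5 against 4.90, 3.44, 8.73, 9.20 and 3.26 (log2 change −2.23, adjusted p = 0.00383). Its ALT values all lay under the pseudocount, so Cdkn2a passed the filter only through the telomerase and parental arrays. The log2 change was −3.71 with a pseudocount of 1 and −1.15 with 64. In the arrays with acinar transcripts it was −1.53 (adjusted p = 0.0625). Cdkn2d, which encodes the CDK4/6 inhibitor p19, rose by 0.40 (adjusted p = 0.0468), and this call was lost without telomerase 1 (adjusted p = 0.181), telomerase 2 (0.0687) or telomerase 3 (0.108) and without ALT 1, 2, 4 or 5 (0.0888, 0.0911, 0.0682 and 0.0775).

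Genes downstream of E2F mostly did not pass, which also holds for all tested genes, of which 17.5% passed. Of 8 tested genes of the cyclin E and A kinase complexes 0 passed the limma test after adjustment, and 2 had an unadjusted p under 0.05. Ccna2, the cyclin of S phase, had a log2 change of −0.22 on its main probe set (adjusted p = 0.157), but its other tested probe set passed as higher (0.73), so its direction is uncertain. Of 26 tested S-phase targets 1 rose and 2 fell, with a median log2 change of 0.06. The licensing factor Cdt1 rose from 2349 ± 295 to 3865 ± 362 (log2 change 0.72, limma adjusted p = 0.00132). Geminin (Gmnn), which inhibits Cdt1, fell from 2159 ± 149 to 1428 ± 142 (log2 change −0.59, adjusted p = 0.00277). Thymidine kinase (Tk1) fell by 0.50 (adjusted p = 0.0321), a call lost without telomerase 1 (adjusted p = 0.147), telomerase 2 (0.112), ALT 2 (0.0573), ALT 3 (0.0596) or ALT 4 (0.0546).

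Of 8 MuvB and MYB partners Lin54 rose by 0.48 and Lin9 fell by 0.33 (limma adjusted p = 0.0258 and 0.025). Neither passed without telomerase 1 (adjusted p = 0.119 and 0.073) or without telomerase 3 (0.0904 and 0.0876), Lin54 not without ALT 2 (0.0563) or ALT 3 (0.0515), and Lin9 not without telomerase 2 (0.0684) or ALT 1 (0.0508). Of 18 genes of G2 and mitosis 3 rose and 1 fell. Kif11, the spindle kinesin, fell by 0.83 (adjusted p = 0.00633) with all 3 of its tested probe sets lower. Cenpa, Nusap1 and Tpx2 rose by 0.42, 0.36 and 0.40. None of these 3 passed without telomerase 1 (limma adjusted p = 0.0632, 0.109 and 0.108). Cenpa also did not pass without telomerase 3 (0.0568), Nusap1 not without telomerase 2 (0.0775), and Tpx2 not without telomerase 2 (0.0576), telomerase 3 (0.0697) or ALT 2 (0.0572). Nusap1 and Tpx2 each had another probe set past the threshold in the opposite direction.

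Among 10 genes of D cyclin turnover and CDK activation 1 rose and 1 fell. Fbxo31, an F-box protein that targets cyclin D1 for degradation, gave 71.4, 74.7 and 105 in the telomerase arrays and 187, 239, 170, 219 and 211 in the ALT arrays. All ALT arrays were higher (log2 change 1.16, SE 0.148, limma adjusted p = 0.000812), although its second probe set was at −0.31 and did not pass. Gsk3b, a kinase that marks cyclin D1 for export and degradation, fell by 0.30 (adjusted p = 0.0388) and did not pass without telomerase 1 (adjusted p = 0.151), telomerase 2 (0.0827) or telomerase 3 (0.0858), nor without ALT 1 (0.0759), ALT 3 (0.0731) or ALT 5 (0.0667).

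Of 19 tested upstream inducers 1 rose and 3 fell. Lef1, a factor of the WNT pathway that binds the Ccnd1 gene, gave 3662, 2928 and 3572 in the telomerase arrays and 1315, 1543, 1468, 1628 and 1369 in the ALT arrays. No ALT array came near the telomerase range (log2 change −1.20, SE 0.0995, limma adjusted p = 8.41e-05). Foxo1, which stands in this list although it restrains D cyclin transcription, rose from 538 ± 59.6 to 809 ± 59.8 (log2 change 0.58, adjusted p = 0.00387). Notch1, the receptor that drives T-cell leukaemia, fell by 0.37 (adjusted p = 0.0316), and Myb by 0.50 (adjusted p = 0.0461). Notch1 did not pass without telomerase 1 (adjusted p = 0.132), telomerase 3 (0.0896), ALT 1 (0.0654) or ALT 3 (0.0598), nor with quantile normalisation (0.104). Myb did not pass without telomerase 1, 2 or 3 (0.104, 0.0892 and 0.149) or ALT 1, 2 or 3 (0.0846, 0.0637 and 0.0763), nor with quantile normalisation (0.0814).

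**Figure D5:**
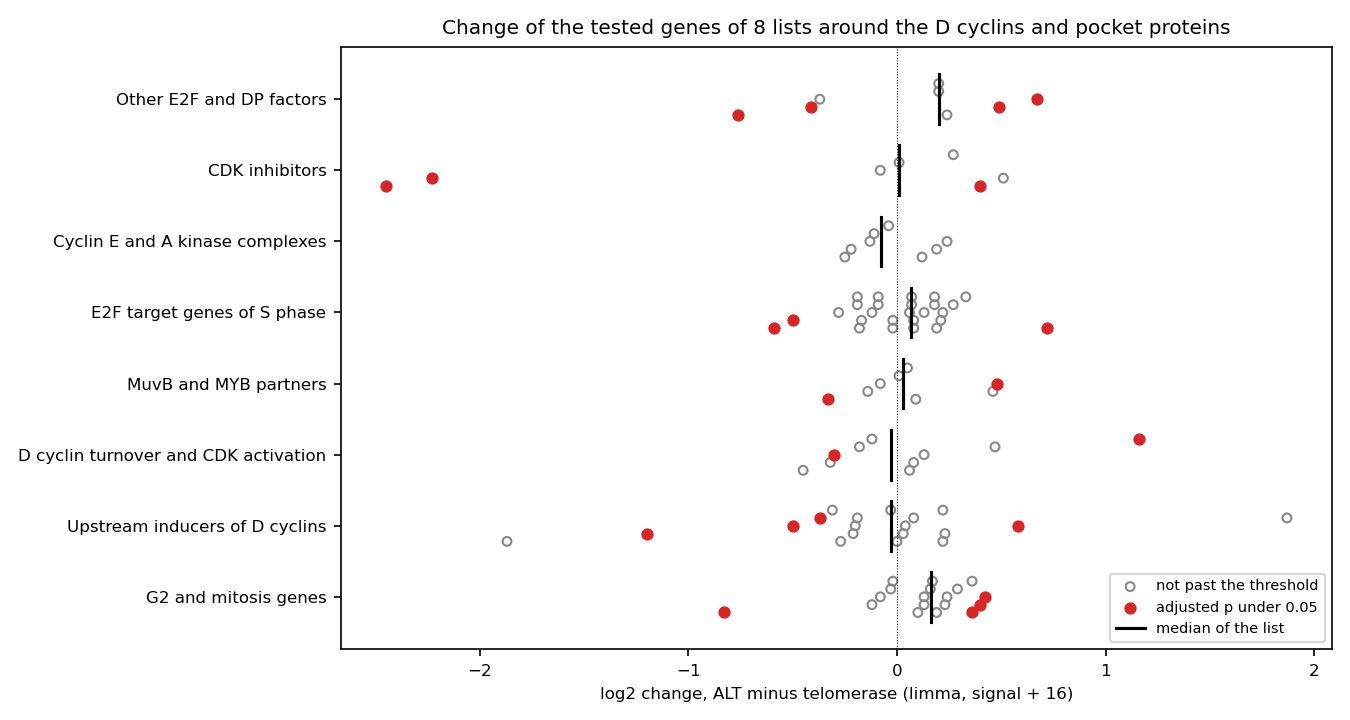
log2 change, ALT minus telomerase (horizontal axis), of each tested gene in 8 lists around the family, with genes past the threshold filled in red and the median of each list as a black bar. Medians lie between −0.08 (cyclin E and A complexes) and 0.20 (other E2F and DP factors), and called genes stand on both sides of 0 in 7 of the 8 lists.

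The 10 genes lie on 9 chromosomes, with E2f1 and Rbl1 both on chromosome 2. Up to 10 tested neighbours were taken on each side. Over all tested genes 7.48% rose and 10.1% fell. The median log2 change of the neighbours lay between −0.21 (E2f1) and 0.10 (Ccnd2). Around Cdk6 0 of 10 tested neighbours passed the limma test after adjustment. Around Cdk4 0 of 20 rose and 2 fell, 1 of them Tspan31. Around Ccnd2, which fell, 2 of 20 rose and 0 fell. Around Rbl2 on chromosome 8, 4 of 20 rose and 3 fell. Of those that rose 1 lay before Rbl2 and 3 after it, and those that fell all lay before it. Cdt1 and Fbxo31, called higher above, and Tfdp1, called lower, are also on chromosome 8. So are E2f4, Mcm5, Orc6 and Jak3 of the lists, which did not pass. The gene before Rbl2, Chd9, rose by 0.48 (limma adjusted p = 0.0229), and the gene after it, Aktip, which overlaps Rbl2 in the annotation, had a log2 change of 0.27 (adjusted p = 0.179). The median was −0.15 over the 10 genes before Rbl2 and 0.19 over the 10 after it. Bysl, which overlaps Ccnd3, rose by 0.56 (adjusted p = 0.0247) while Ccnd3 did not pass. Id3, the neighbour before E2f2, fell by 1.26 (adjusted p = 0.00968).

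For each of the 5 genes that passed, the 3 tested genes with the most similar profile over the 9 arrays were found, by the root mean square difference between log2 profiles centred on their means. For Cdk6 they were Tmem29, Vangl2 and Wdr37, with differences of 0.08, 0.09 and 0.10. For Cdk4 they were Mrps21, Cd3e and Ap3b1 (each 0.09). Cd3e, a T-cell receptor chain and 1 of the T-cell markers above, went from 2090 ± 337 to 1468 ± 156. For Rbl2 they were Piwil2 (0.09) and 2 genes of chromosome 8, Znrf1 and Zfp1 (each 0.13). The genes nearest to Ccnd2 were Creb3l1, Slc1a4 and Kctd17 (0.12, 0.13 and 0.14). Ccnd1 had no profile as close: Anxa4, Nmral1 and Gp5 differed by 0.18, 0.19 and 0.24.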

How the data were processed

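Total RNA of 9 lymphomas was measured on an Affymetrix mouse array. The authors deposited 1 intensity per probe set and array on a linear scale, for which the submitters' processing notes name MAS5. The scaling target and other settings are not stated. Array medians were close, so no further normalisation was applied. The array annotation gave 1 gene for 34958 probe sets, several for 932 and none for 9211.

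Tests used limma 3.58.1 in R 4.3.3 (intensity trend, two-sided) on log2(signal + 16), ALT against telomerase, leaving out probe sets whose mean was in the lowest 40% (under 25.3). The parental array was described only. The model was tested on simulated data. Plots used Python 3.11.15 and matplotlib 3.10.9.

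The text names all probe sets of the 10 genes, up to 4 genes per list with the smallest p, the genes with the nearest profiles, and adjacent or overlapping genes. Overlapping genes, Myc, Mycn and Max, and the promoter search were added after values were seen. Members and lists were chosen with earlier results of these data known. Alternatives varied the filter, pseudocount, normalisation, probe set summary, variance model, replicate numbers, parental array, acinar transcripts (10 times the lowest array or more) and single arrays.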

Additional observations from a re-analysis of the deposited data

Results flagged for a closer look

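In the ALT group 40 sets of 5 values were examined (32 probe sets and 8 ratios) for an array far from the other 4, and 3 were found, where chance alone marks about 5% of such sets. All 3 concern ALT 5. On the main probe set of Rb1 it was at 634, and the next ALT array was at 360. Lpar6, which overlaps Rb1 in the annotation, was also highest in ALT 5, at 1721 against at most 1003 in the other ALT arrays. On 1432604_at of Rbl1 it was at 94.8 with the next array at 62.4, while the main probe set of Rbl1 did not set it apart. On 1417878_at of E2f1 it was the lowest at 104, and the other 4 lay between 137 and 138. ALT 5 also had the highest sum of acinar transcripts, whose part in these values was not tested.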

How the results depend on the processing

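The log2 changes of Ccnd1, Rbl2, Ccnd2, Cdk4 and Cdk6 kept their direction under all 22 alternatives run on genes (110 values), and 103 of these values passed. With any single array left out all 5 still passed, the counts were 2 higher and 3 lower throughout, and for probe sets 4 to 5 higher and 11 to 12 lower. In the arrays without acinar transcripts (2 against 2) 1 gene rose and 1 fell, and 1 probe set rose and 9 fell. In those with them (1 against 3, the lone telomerase array assumed to vary like the ALT arrays) 1 gene rose and 1 fell, and 3 probe sets rose and 6 fell. The listed pathway genes came to 3 higher and 6 lower without acinar transcripts, 2 and 2 with them, 5 higher with probe sets averaged, and 5 to 11 higher and 6 to 13 lower with 1 array left out.

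The labels do not say whether replicate numbers pair the tumours, and no pairing was used. Deviations of same-numbered arrays correlated at −0.302, −0.402 and −0.572. These values do not settle it, since correlations were positive between arrays alike in acinar transcripts (telomerase 3 with ALT 1, 2 and 5 at 0.387, 0.452 and 0.414) and negative between the others. With the number as a replicate block 1 gene rose (Ccnd1 lost its call, log2 change 1.08, adjusted p = 0.0737) and 3 probe sets rose, 4 pathway genes rose and 7 fell, and over all genes 372 rose and 619 fell, against 925 and 1245. These were 504 and 659 without telomerase 1, 379 and 454 without acinar transcripts, and 138 and 198 with them. With quantile normalisation 1126 rose and 1047 fell over all genes, so the balance of all calls turned, while the 10 members kept the same counts. The median over all genes moved by less than 0.1 under any scaling. Between 0 and 5 of the ratios passed with 1 array left out, and 0 within the arrays with or without acinar transcripts, where 2 against 2 or 1 against 3 arrays cannot reach the threshold.

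With 1 array left out Ccnd3 ran from −0.33 to 0.17, Rb1 from −0.23 to 0.07, Rbl1 from −0.01 to 0.10, its other probe sets from −0.31 to 0.03 and from −0.14 to 0.04, the ratio of Rb1 to Rbl1 from −0.25 to 0.04 and that of E2f1 to E2f2 from −0.07 to 0.20. Except for E2f6 and Nusap1, signs turned only where the value had not passed. The cause was not tested. Ccnd3 was at 0.01 with quantile normalisation, 0.03 with probe sets averaged, 0.03 with the acinar term and 0.75 in arrays with acinar transcripts, where its other probe sets were at −0.59 and 0.20. Rb1 was at 0.00 with quantile normalisation and 0.32 in arrays with acinar transcripts. Rbl1 was at −0.03 with probe sets averaged, −0.02 with the parental array added, −0.03 in arrays without acinar transcripts, and its other probe sets at 0.01 with quantile normalisation and at 0.30 and 0.24 in arrays with acinar transcripts. In those arrays E2f2 was at 0.12, 1417878_at of E2f1 at 0.00, the ratio of Rb1 to Rbl1 at 0.15 and that of E2f1 to E2f2 at −0.20. With probe sets averaged E2f6 and Nusap1, called higher above, passed as lower (−0.42 and −0.40), and Ccna2 was at 0.26.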
